A study of Mus musculus with 47 samples.

Results

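The transcripts of 10 circadian clock genes were measured in the inguinal white adipose tissue (iWAT) of 47 mice. The genes were chosen by name, as the non-control spots of the array whose gene name is Arntl, Clock, Npas2, Per1, Per2, Per3, Cry1, Dbp, Nr1d1 or Nr1d2. All 10 were found among the 27745 gene names of the array, with 17 probes. Of these, 10 probes of 7 genes were at least 2 times as bright as the local background in both dyes and entered the tests. Npas2, Per3 and Cry1 were dimmer and entered no test between groups, only the relations across mice.

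The study asked how long-term β-carotene (BC) supplementation affects adipose tissue in mice that can or cannot cleave BC. Wild-type (WT) mice and mice lacking Bcmo1, the enzyme that cleaves BC into retinal, were fed from 5 weeks of age for 14 weeks and were 19 weeks old at sacrifice. Each sex of each genotype received a diet with 1500 IU vitamin A/kg and 10% of energy as fat, either without BC (control diet, control-fed mice) or with 150 mg BC/kg (BC diet, BC-fed mice). All mice had a C57/BL6;129Svj background, the Bcmo1-null mice carrying the Bcmo1 tm1Dnp allele and the WT controls being an F1 generation of that mixed background. Each of the 8 groups held 6 mice, save for the 5 BC-fed WT males. Mice were housed 3 to a cage under 12 h of light and 12 h of dark. The hour at which each mouse was killed, its cage and its litter are not among the sample labels or the methods used here, so that the values below could not be set against clock time.

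On every array the Cy5-labeled RNA of 1 mouse was set against the same Cy3-labeled pool of all samples, and the 47 arrays lay on 12 slides read in 1 scan day. Array medians ranged from 130 to 277 in Cy5 and from 112 to 158 in Cy3, over median backgrounds of 51 to 56 and 50.5 to 65.5. Values are given as the log2 ratio of a mouse to the pool, so that 0 is the level of the pool and a difference of 1 is a doubling. The probe of the deleted gene, Bcmo1, was only 1.63 times as bright as background in Cy5, and its log2 ratio ranged from -0.25 to 0.47 in WT and from -0.14 to 0.31 in Bcmo1-null mice, so that it could not check the genotypes. The 10 adipocyte markers examined all passed the signal filter; markers of other cell types in the fat pad differed between groups and are given beside the results they accompany. In whole tissue, fewer cells of a type and less RNA per cell cannot be told apart.

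The circadian clock is a feedback loop that runs in nearly every cell. Arntl (also Bmal1) and Clock, or its relative Npas2, form the activator that binds E-box sequences and drives the Per, Cry, Nr1d and Dbp genes; Per and Cry proteins then block the activator, and Nr1d1 and Nr1d2 (Rev-erb alpha and beta) repress Arntl through ROR elements. Arntl transcripts therefore peak at about the opposite time of day from those of Dbp and the Per and Nr1d genes, in fat as in liver, and the comparison of interest is whether the mice, each collected once, differ in the balance of these sides.

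To show the elements through which these genes act on each other, the promoter windows that hold 1 of them are printed here. RefSeq (GRCm38.p6) gave windows from 250 bases before to 50 bases after the transcript start for 9 of the 10 genes, 13 windows in all, and none for Per2. Both strands were searched for the E-box CACGTG, the D-box TTANGTAA bound by Dbp and its relatives, and the ROR element written as TAGGTCA or TGGGTCA. A match occurred in 4 of the 10 genes and is in capitals, 5′ to 3′ on the gene's strand: a ROR element at position 31 from the transcript start of Arntl (chr7:113207261-113207560, plus strand), an E-box at -166 in Per1 (chr11:69098699-69098998, plus strand), D-boxes at -205 and -158 in Per3 (chr4:151044616-151044915, minus strand) and an E-box at -60 in Cry1 (chr10:85185005-85185304, minus strand).
Arntl: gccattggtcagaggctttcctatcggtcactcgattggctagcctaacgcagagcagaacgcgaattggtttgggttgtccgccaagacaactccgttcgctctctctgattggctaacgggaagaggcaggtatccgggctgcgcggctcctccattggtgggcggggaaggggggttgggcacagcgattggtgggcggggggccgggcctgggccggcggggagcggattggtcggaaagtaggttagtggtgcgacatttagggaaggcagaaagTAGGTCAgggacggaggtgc
Per1: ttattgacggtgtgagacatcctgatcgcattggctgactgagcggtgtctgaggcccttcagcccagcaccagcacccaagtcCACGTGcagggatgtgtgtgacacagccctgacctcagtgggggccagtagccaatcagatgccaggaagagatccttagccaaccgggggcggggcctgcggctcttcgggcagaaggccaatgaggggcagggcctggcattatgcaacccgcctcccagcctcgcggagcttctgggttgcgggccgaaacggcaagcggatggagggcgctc
Per3: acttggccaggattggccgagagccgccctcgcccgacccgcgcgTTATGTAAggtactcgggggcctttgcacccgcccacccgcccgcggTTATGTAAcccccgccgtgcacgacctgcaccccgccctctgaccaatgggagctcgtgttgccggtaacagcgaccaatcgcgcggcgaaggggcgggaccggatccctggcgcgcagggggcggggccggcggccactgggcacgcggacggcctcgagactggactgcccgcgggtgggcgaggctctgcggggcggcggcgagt
Cry1: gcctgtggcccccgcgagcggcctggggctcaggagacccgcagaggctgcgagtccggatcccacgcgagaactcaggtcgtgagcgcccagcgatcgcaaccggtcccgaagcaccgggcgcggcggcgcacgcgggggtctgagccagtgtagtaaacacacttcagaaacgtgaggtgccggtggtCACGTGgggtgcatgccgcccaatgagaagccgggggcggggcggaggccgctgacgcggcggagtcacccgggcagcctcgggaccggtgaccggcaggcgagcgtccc
Over all 32851 promoter windows of the same length, 7.15% held the E-box, 2.32% the D-box and 6.45% the ROR element. A match describes these letters only, and no match says nothing beyond this window.

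Arntl, the activator subunit without which the loop stops, was read by a probe at chr7:113104645-113104704 (mm8, plus strand) that was 21.6 times as bright as background. In WT females its log2 ratio ranged from -1.35 to 0.46 on the control diet (median -0.45, mean -0.39 ± 0.72 SD, n = 6) and from -1.30 to 0.11 on the BC diet (median -0.78, mean -0.64 ± 0.57 SD, n = 6). In Bcmo1-null females it ranged from 0.04 to 0.74 on the control diet (median 0.21, mean 0.33 ± 0.28 SD, n = 6) and from -0.26 to 0.66 on the BC diet (median 0.25, mean 0.23 ± 0.31 SD, n = 6). Most WT females thus lay below the pool and most Bcmo1-null females above it, but both overlapped on each diet. In males, the values ran from -0.53 to 0.77 in control-fed WT mice (median -0.15), from -0.55 to 0.35 in control-fed Bcmo1-null mice (median 0.12) and from -0.63 to 0.65 in BC-fed Bcmo1-null mice (median 0.20). The 5 BC-fed WT males had -0.06, 0.99, -0.74, 0.82 and -1.10. These 5 mice of 1 group spanned 4.24-fold, most of the 5.04-fold range over all 47 mice.

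Dbp, a transcription factor driven by the activator and among the strongest clock outputs, was the brightest of the genes, 299 times as bright as background (chr7:45577937-45577996, mm8, plus strand), and had the widest range, 11.4-fold between the lowest and the highest mouse. In WT females it ran from -1.17 to 1.63 on the control diet (median -0.03, mean 0.04 ± 1.12 SD, n = 6) and from -1.52 to 1.22 on the BC diet (median 0.44, mean 0.13 ± 1.10 SD, n = 6). In Bcmo1-null females it ran from -1.89 to -1.06 on the control diet (median -1.43, mean -1.46 ± 0.28 SD, n = 6) and from -1.79 to 0.36 on the BC diet (median -1.14, mean -1.01 ± 0.80 SD, n = 6). WT females were split between high and low mice, whereas 11 of 12 Bcmo1-null females lay below the pool. In males, it ran from -1.54 to 0.75 in control-fed WT mice (median 0.22), from -1.18 to 0.77 in control-fed Bcmo1-null mice (median -0.63) and from -1.64 to 0.51 in BC-fed Bcmo1-null mice (median -0.72). The 5 BC-fed WT males, in the order given for Arntl, had 0.91, -1.58, 0.91, -1.43 and 1.26. The mice of that group with the highest Arntl had the lowest Dbp, and Dbp differed 7.12-fold within it. The narrowest group for Dbp was that of the control-fed Bcmo1-null females, with a 1.78-fold range.

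**Figure D1:**
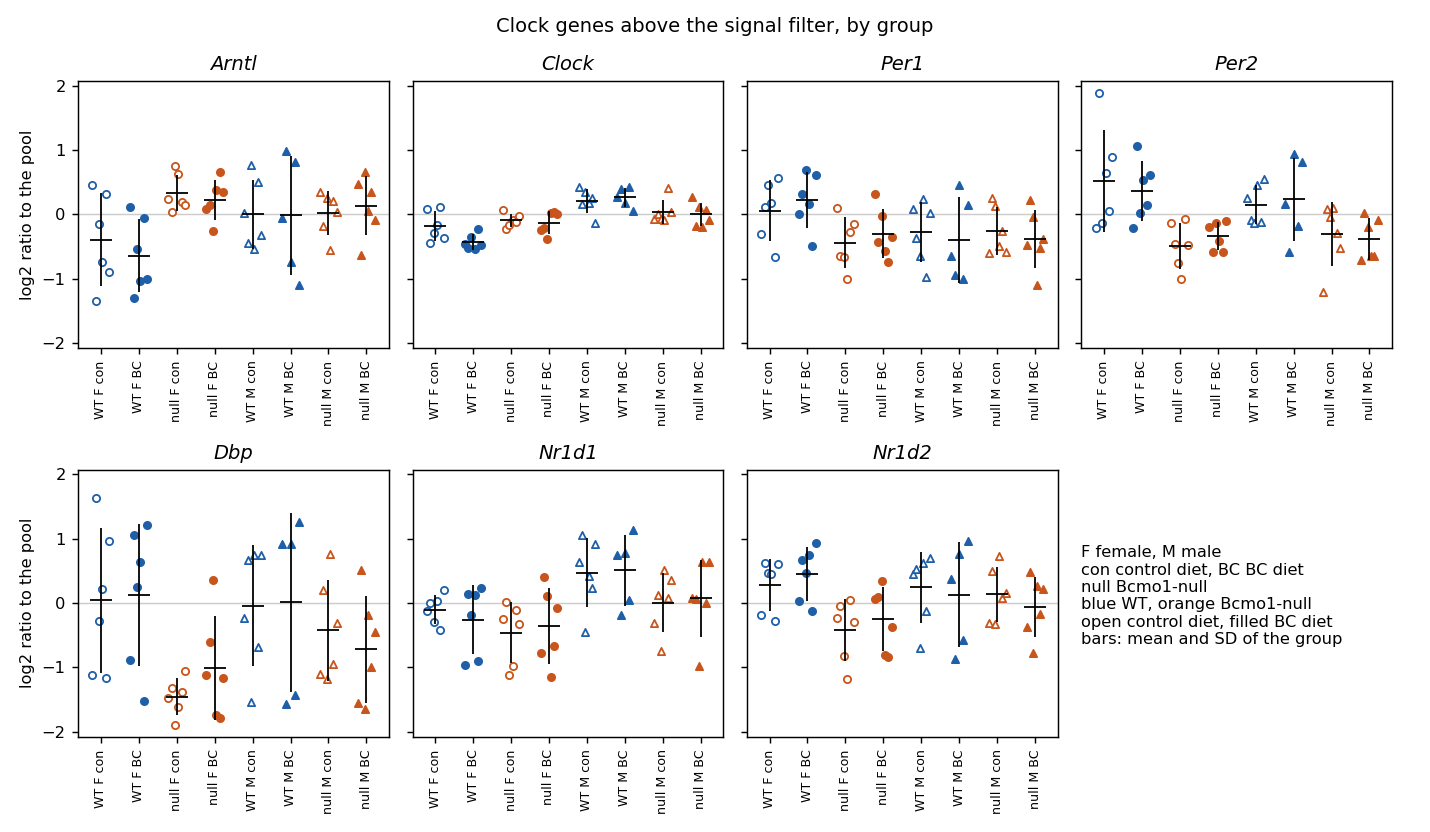
Log2 ratio to the pool (y axis) of the 7 clock genes above the signal filter in each mouse, by group (x axis); each point is a mouse, and the bars give the group mean and SD. The spread within groups was widest for Dbp, and WT females included both high and low mice while the control-fed Bcmo1-null females kept to the low end for Dbp, from -1.89 to -1.06.

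The plot of the 7 genes by group shows the same overlap for the other members. Per2, a repressor of the activator, was read at chr1:93246875-93246934 (mm8, minus strand) and ranged 8.52-fold over all mice. Its log2 ratio was -0.21 to 1.88 in control-fed WT females (median 0.34) and -0.21 to 1.06 on the BC diet (median 0.34), against -1.01 to -0.07 (median -0.48) and -0.59 to -0.10 (median -0.31) in Bcmo1-null females. All 12 Bcmo1-null females lay below the pool for Per2, as did 3 of 12 WT females. In males, it was -0.14 to 0.54 (median 0.09) in control-fed WT mice and -1.21 to 0.11 (median -0.17) in control-fed Bcmo1-null mice, and -0.72 to 0.03 (median -0.42) in BC-fed Bcmo1-null mice. The 5 BC-fed WT males ran from -0.58 to 0.94, with a median of 0.16. Per1, the other repressor above the filter (chr11:68925571-68925630, mm8, plus strand), ranged 3.48-fold, from -1.11 to 0.69, with group medians of 0.15 and 0.24 in WT females on the control and BC diets and -0.46 and -0.39 in Bcmo1-null females. Its 4 male groups had medians from -0.65 to -0.18.

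Nr1d2 (chr14:16997805-16997864, mm8, minus strand) and Nr1d1 (chr11:98585302-98585804, mm8, minus strand), the repressors of Arntl, ranged 4.45-fold and 4.87-fold over the mice. Nr1d2 had group medians of 0.46 and 0.57 in WT females on the control and BC diets against -0.26 and -0.15 in Bcmo1-null females, and its male medians lay between 0.03 and 0.49. Nr1d1 was highest in WT males, with medians of 0.53 on the control diet and 0.74 on the BC diet, and lowest in Bcmo1-null females, with -0.28 and -0.37. A further kept probe of Nr1d1, 3.75 times as bright as background, followed the brighter one with r = 0.74 over the mice.

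Clock, the partner of Arntl (chr5:77287127-77287186, mm8, minus strand), varied least of the 7 genes above the filter, 1.94-fold over all mice, and 62.7% of its variance lay between groups, against 28.6% for Dbp and 27.4% for Arntl. Its lowest group was that of the BC-fed WT females, from -0.54 to -0.23 (median -0.47), and its highest that of the WT males on that diet, from 0.05 to 0.42. Of its other kept probes, the one for the same transcript followed the brightest (r = 0.82), whereas one for a separate cDNA inside the gene did not (r = 0.06). Of the dim genes, Npas2, a relative of Clock, was 1.63 times as bright as background in Cy5, Per3, a weaker relative of Per1 and Per2, was 1.84 times, and Cry1, the partner of the Per proteins, was 2.15 times, but all were below 2 times in Cy3. Their ranges over the 47 mice were 1.38-fold, 1.83-fold and 1.86-fold.

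Mouse by mouse, clock genes ran in opposite directions. After group means were removed, Arntl and Dbp were on opposite sides of their means in 43 of 47 mice, with a Pearson's r of -0.939 and a Spearman's rho of -0.943 (two-sided permutation test within groups, p = 1e-05, the smallest that 100000 resamples can give, adjusted p = 1.8e-05 over 9 relations). Nr1d2 (r = -0.894, rho = -0.890), Per2 (r = -0.803, rho = -0.814) and Nr1d1 (r = -0.706, rho = -0.718) also ran against Arntl, each with a permutation p of 1e-05. Per1 did so more loosely (r = -0.623, rho = -0.629, permutation p = 0.00013 and 0.0001). Clock ran with Arntl (r = 0.673, rho = 0.683, permutation p = 1e-05). Of the dim genes, Per3 ran with the other Per genes against Arntl (r = -0.567, rho = -0.542, permutation p = 0.00034 and 0.00041), Npas2 ran with it (r = 0.553, rho = 0.528, permutation p = 0.00025 and 0.00051) and so did Cry1, whose transcript is known to peak later than those of the Per genes (r = 0.534, rho = 0.555, permutation p = 0.00041 and 0.00035). All 9 relations passed after adjustment, the largest adjusted p being 0.00041 for r. With each array centred on its median, r of Npas2 was 0.17 and did not pass. The other relations passed, but most were looser. Their r was then -0.793 for Dbp, -0.675 for Per2, -0.600 for Nr1d2, -0.440 for Nr1d1, -0.375 for Per1 and 0.366 for Cry1. Those of Clock (0.709) and Per3 (-0.630) were not looser.

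**Figure D2:**
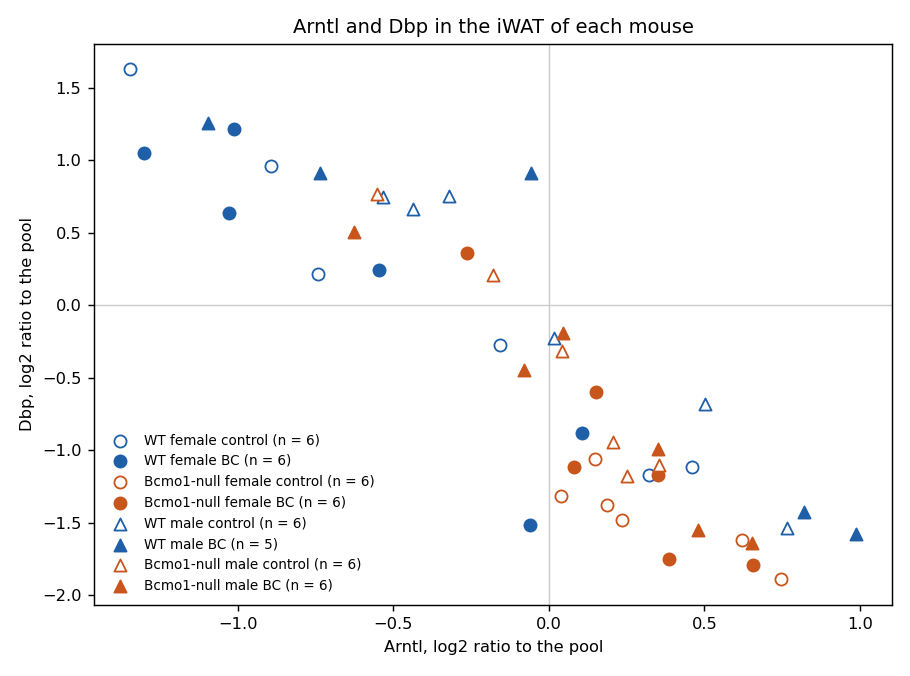
Log2 ratio to the pool of Arntl (x axis) and Dbp (y axis) in each of the 47 mice, 1 point per mouse; colour gives genotype, shape gives sex and filling gives diet. All groups lay along 1 falling line (r = -0.939 with group means removed), with most Bcmo1-null females in its high-Arntl part and WT mice at both ends.

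The plot of Arntl against Dbp shows that this relation did not rest on single groups or slides. Within the 8 groups, r ran from -0.870 in control-fed Bcmo1-null females to -0.983 in control-fed WT females. Within the 12 slides, of 3 or 4 mice each, it ran from -0.645 to -0.999. With slide means removed as well, r was -0.883 (permutation p = 1e-05), and it was -0.928 in the 24 females and -0.949 in the 23 males. Without the 2 mice farthest from the median of Arntl, r was -0.937, and the other 8 relations kept their direction under the same omission, with r from -0.874 for Nr1d2 to 0.657 for Clock.

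Among themselves, genes on the Dbp side ran together. Dbp and Nr1d2 had r = 0.896, Nr1d1 and Nr1d2 0.836, Dbp and Nr1d1 0.757 and Dbp and Per2 0.706, again over 47 mice with group means removed and given as a description. The loosest pair on that side was Per1 with Per3, at 0.26, followed by Per1 with Nr1d1, at 0.27. Per1 is also induced by signals other than the clock.

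**Figure D3:**
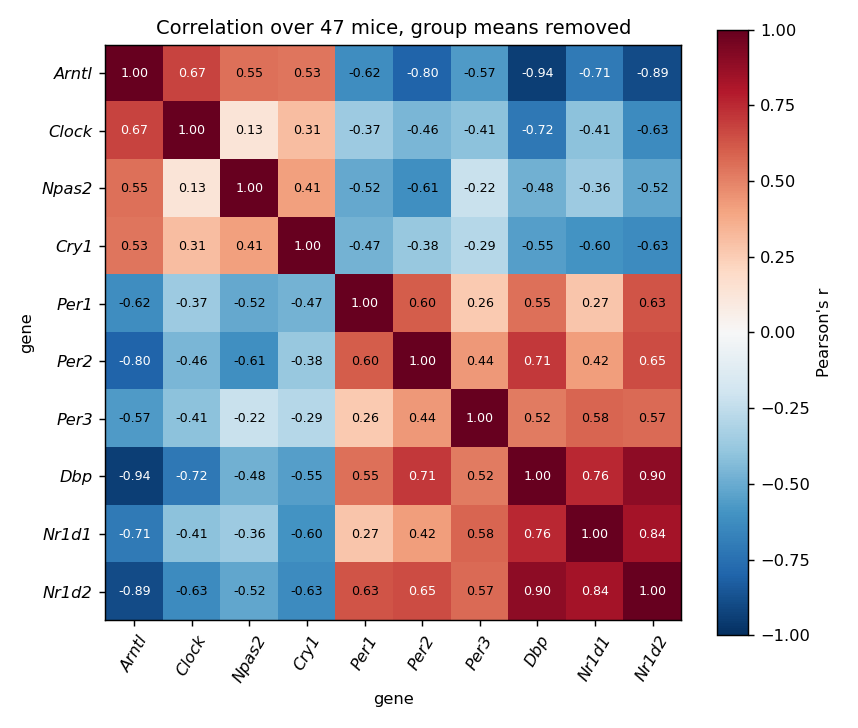
Pearson's r between the clock genes over 47 mice after removal of group means, from -1 (blue) to 1 (red), for the 10 genes on both axes. Arntl, Clock, Npas2 and Cry1 form a block with positive r, Per1, Per2, Per3, Dbp, Nr1d1 and Nr1d2 another, and every r between the blocks is negative, from -0.22 for Npas2 with Per3 to -0.94 for Arntl with Dbp.

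The matrix of correlations thus holds opposed blocks of genes, and the size of this variation stood high in the data. The SD within groups was 0.944 for Dbp, above that of 98.5% of the 20718 probes kept, whose median SD was 0.197. Arntl (0.544), Nr1d2 (0.513), Nr1d1 (0.509), Per2 (0.482) and Per1 (0.458) were above 94.3%, 93.4%, 93.3%, 92.3% and 91.3% of probes. Clock, at 0.173, was above 38.2% only.

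The genes whose values followed Arntl most closely, among 13593 genes read by their brightest kept probe, included further clock outputs. With r as the measure over 47 mice, the highest were Dtx4 (0.87), Nfil3 (0.83), a repressor that competes with Dbp for D-boxes, Lonrf3 (0.80), Sema6d (0.76), Leo1 (0.75), Ccrk (0.74), Osgin1 (0.69) and, in the eighth place, Clock, followed by Dapk1 (0.66), Adam19 (0.65), Cdkn2b (0.65) and Tubb2a (0.63). The lowest were Dbp (-0.94), Tef (-0.90), a PAR bZIP factor like Dbp, Nr1d2 (-0.89), Slc5a6 (-0.82), Per2 (-0.80), Osbpl11 (-0.72), Il15ra (-0.72), Sec24b (-0.72), Por (-0.71), the electron donor of cytochromes P450, and Nr1d1 (-0.71), then BC031353 (-0.69) and D430015B01Rik (-0.68). Dbp ordered nearly the same genes from its own side, with Tef (0.92) first and Slc27a2 (0.67), Zfp524 (0.67), Ppara (0.66) and Tapt1 (0.66) among its 12 most alike that were not among those of Arntl. From its other end, below Arntl, Dtx4 (-0.86), Nfil3 (-0.83) and Lonrf3 (-0.79), only Sh3pxd2b (-0.71) was not in the list of Arntl.

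An absolute r over 0.5 with Arntl was found for 211 genes, or 1.55% of the 13593. Of 11 measured clock output genes, 6 exceeded it: Tef, Hlf (-0.65), Por and Ppara (-0.66) on the side of Dbp, and Nfil3 and Cdkn1a (0.59) on that of Arntl. None of 9 other clock regulators, which set the pace or stability of clock proteins or bind the same elements, such as Cry2, Rora, Csnk1e and Timeless, exceeded it (r from -0.38 to 0.33). The same held for 11 glucocorticoid-responsive genes (r from -0.44 to 0.02). The 47 points share their slides and the pool, and genes are not independent of each other.

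Mice of the same sex and genotype that shared a slide resembled each other in several clock genes. In 20 pairs of a control and a BC mouse of the same sex and genotype on 1 slide, a comparison chosen after the data were seen, Dbp was on the same side of the means of both groups in 15 pairs and Arntl in 17. For Dbp, r between the mice of a pair was 0.746 and rho 0.729 (two-sided permutation test within sex and genotype, p = 0.00097 and 0.00207, adjusted p = 0.0071 and 0.01035 over 10 genes), and r was 0.707 without the 2 pairs farthest from the median. The median difference in Dbp within a pair was 0.387, against 0.868 between mice of 1 group. The widest gap in a pair was 2.25, in Bcmo1-null females on the eighth slide, where the control mouse had -1.89 and the BC mouse 0.36.

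**Figure D4:**
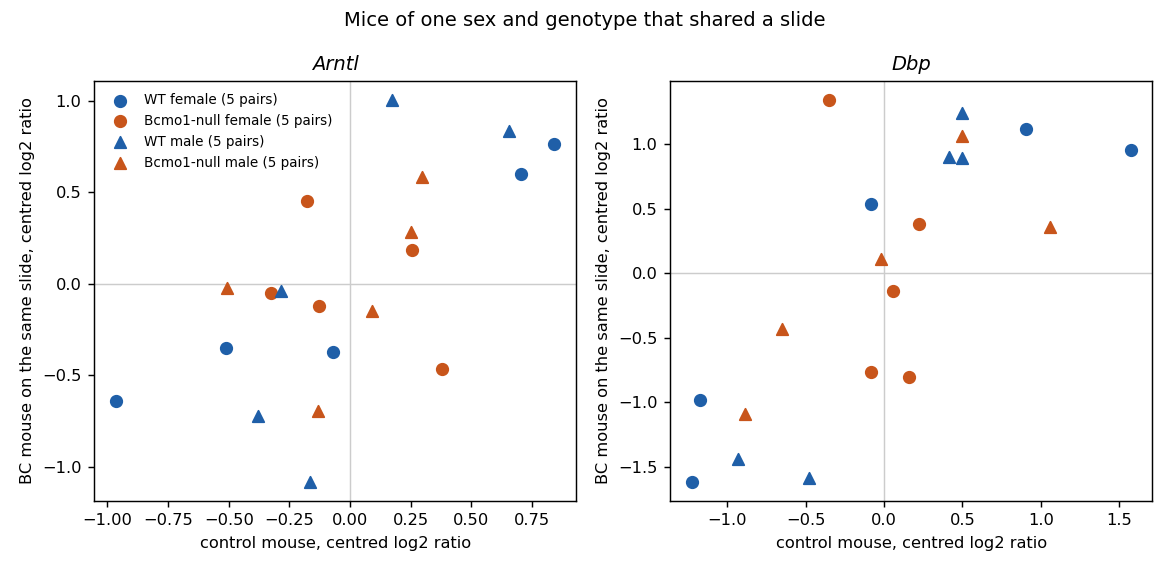
Log2 ratio of Arntl (left) and Dbp (right), less the mean of its sex, genotype and diet over the pairs, in the control mouse (x axis) and in the BC mouse on the same slide (y axis), 1 point per pair; 1 point averages 2 control mice of 1 slide. Pairs lie in the lower left and upper right fields in 15 of 20 cases for Dbp and 17 of 20 for Arntl.

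The plot of slide pairs was matched by other members. Per1 (r = 0.713, rho = 0.719, adjusted permutation p = 0.0071 and 0.01035), Arntl (r = 0.646, rho = 0.574, adjusted p = 0.0247 and 0.0432), Nr1d1 (r = 0.573, rho = 0.606, adjusted p = 0.0374 and 0.0385) and Clock (r = 0.530, rho = 0.541, adjusted p = 0.0314 and 0.0385) passed by both measures. Nr1d2 (r = 0.570, rho = 0.483, adjusted permutation p = 0.0314 and 0.0549) and Per2 (r = 0.526, rho = 0.483, adjusted p = 0.0374 and 0.0549) passed by r only, and r for Per2 was 0.279 without the 2 outermost pairs. Arntl rested on the WT females: without their 5 pairs its r was 0.499 (permutation p = 0.123), while that of Dbp was 0.665 (permutation p = 0.0148). The values of Cry1 (r = 0.302), Per3 (0.068) and Npas2 (-0.341) did not pass. Over all 18984 probes the median r of such pairs was 0.161. The r of Dbp was above that of 98.4% of these probes, that of Per1 above 97.8% and that of Arntl above 95.6%. The r of Nr1d1 (above 92.2%), Nr1d2 (92.1%), Clock (89.8%) and Per2 (89.5%) stood lower among all probes. Where a slide held sets of mice that differed in sex or genotype, the mean deviations of the sets gave 16 pairs, some of which share a set. Over these, r for Dbp was -0.0563 and rho -0.150, with 7 pairs on the same side. Whether mice of a slide were also killed together is not given, so that slide and time of sampling cannot be told apart.

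The medians of the balance of Arntl and Dbp lay farther apart between genotypes in females than in males. The log2 ratio of Arntl less that of Dbp was above 0 in 5 of 12 WT females (-2.97 to 1.58, median -0.88) and in 11 of 12 Bcmo1-null females (-0.63 to 2.63, median 1.54). In males it was above 0 in 5 of 11 WT mice (-2.35 to 2.56, median -0.97) and in 9 of 12 Bcmo1-null mice (-1.32 to 2.30, median 0.75). All 4 sets overlapped, and WT mice of both sexes covered both ends.

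In limma fits of each sex, no member passed an adjusted p of 0.05 for a genotype difference. The median absolute difference of the 7 members in females was 0.701 on the control diet and 0.698 on the BC diet, beside 0.0943 and 0.147 over all probes. On the control diet, 0 of 7 members of the females passed, where 1.84% of all 20811 probes did, while 5 of 7 had an unadjusted p under 0.05, as did 10.5% of all probes. The methods' t-test with the same adjustment called 0 members in every genotype and diet comparison. Dbp was 2.82-fold lower in Bcmo1-null females on that diet (log2 difference -1.50, SE 0.49, adjusted p = 0.151), Per2 2.01-fold lower (SE 0.28, adjusted p = 0.0692) and Nr1d2 1.63-fold lower (-0.70, SE 0.25, adjusted p = 0.222). These 3 members were below the unadjusted threshold of 0.01, as were 4.42% of all probes. Per2 depended on single mice: its adjusted p in limma was 0.0319 without WT female control mouse 1 and 0.0380 without mouse 3. Without mouse 2, the log2 difference of Per2 was -0.73 and that of Dbp -1.18. Both were the smallest in size of the 24 omissions, and no member passed.

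On the BC diet, 0 of 7 passed in females against 5.5% of all probes, with 6 of 7 at an unadjusted p under 0.05, as were 22.3% of all probes. Arntl was 1.82-fold higher in Bcmo1-null females (0.87, SE 0.28, adjusted p = 0.065), Clock 1.23-fold higher (0.30, SE 0.097, adjusted p = 0.065) and Nr1d2 1.63-fold lower (-0.71, SE 0.25, adjusted p = 0.0927). These 3 were below 0.01 unadjusted, as were 10.3% of all probes. With slide as a random block, Arntl and Clock passed in limma (adjusted p = 0.0456 and 0.0485), but with slide as a fixed term they did not (adjusted p = 0.0992 and 0.126). The further probe of Clock for the same transcript also passed in the limma fit without slide (0.37, adjusted p = 0.0126), and the one for the separate cDNA had -0.10 (adjusted p = 0.577).

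In males, 0 of 7 passed on either diet, against 30.2% of 20437 probes on the control diet and 29.2% on the BC diet, and 0 of 7 and 2 of 7, respectively, had an unadjusted p under 0.05, beside 40.1% and 41.1% of all probes. These 2 were Per2 (-0.61, SE 0.26, adjusted p = 0.0786) and Clock (-0.26, SE 0.11, adjusted p = 0.0691), and with slide as a fixed term in limma both passed (adjusted p = 0.0342 and 0.0253). With slide as a random block only Clock did (adjusted p = 0.0396 in limma, beside 0.0529 for Per2). Dbp differed by -0.38 (SE 0.54) and -0.73 (SE 0.56) and Arntl by 0.02 (SE 0.32) and 0.15 (SE 0.33) on the control and BC diets. The interaction of sex and genotype on the control diet called 0 of 7, against 1.45% of all 20718 probes, and 0 of 7 had an unadjusted p under 0.05, beside 22.3% of all probes. For Dbp its value was 1.11 (SE 0.75, adjusted p = 0.387), so that the genotype difference of females was not shown to differ from that of males. On the BC diet this interaction was not tested.

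When the 4 genotype differences were averaged over sex and diet, a comparison added after the data were seen, 4 of 7 members passed in limma, where 29.1% of all probes did. Per2 was lower in Bcmo1-null mice by 0.69 (log2 difference -0.69, SE 0.14, adjusted p = 0.000156), Dbp by 0.94 (-0.94, SE 0.27, adjusted p = 0.00736) and Nr1d2 by 0.43 (-0.43, SE 0.15, adjusted p = 0.0238), while Arntl was higher (0.44, SE 0.15, adjusted p = 0.0280). Nr1d1 (-0.34, SE 0.14, adjusted p = 0.0710), Per1 (-0.25, SE 0.13, adjusted p = 0.151) and Clock (-0.01, SE 0.05, adjusted p = 0.888) did not pass. With slide as a fixed term, Per2, Dbp and Nr1d2 passed, and Arntl had 0.37 with an adjusted p of 0.0535. Without WT male BC mouse 3 or 5, Arntl had adjusted p = 0.0501 and 0.0543 in limma.

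**Figure D5:**
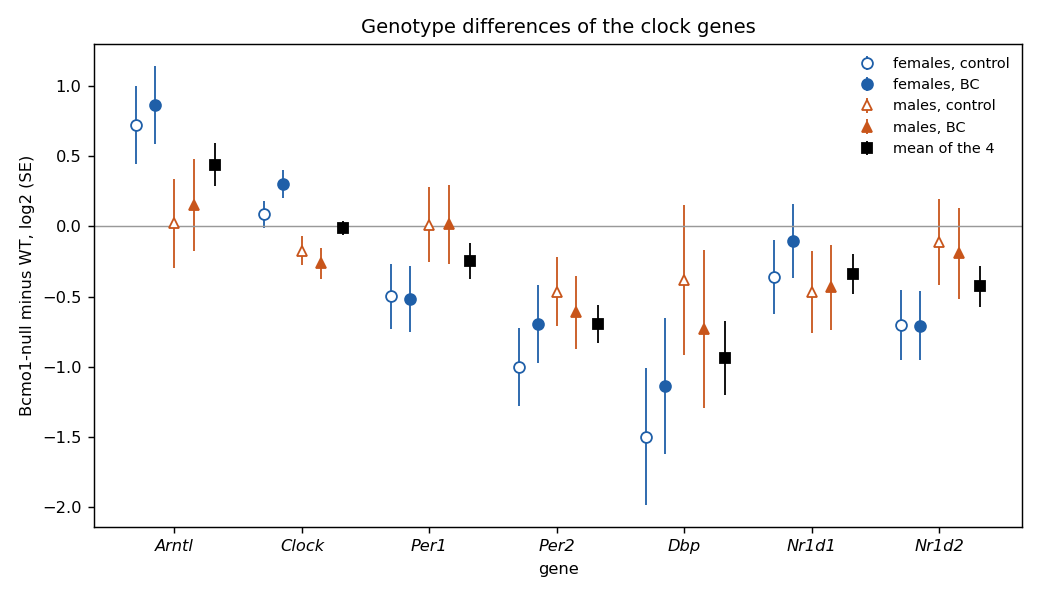
Bcmo1-null minus WT log2 difference (y axis, bars: SE of the limma fit) of the 7 clock genes above the filter (x axis), in females and males on each diet and as the mean of the 4. Dbp, Per2 and Nr1d2 lie below 0 and Arntl above 0 in all 4 comparisons, with the values of females farther from 0.

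As the plot of genotype differences shows, the signs of Dbp, Per2, Nr1d2 and Arntl were shared by both sexes and diets. Between mice of the same sex and diet on 1 slide, Dbp was lower in the Bcmo1-null mouse in 7 of 8 female pairs (-2.96 to 1.88, median -1.26) and 6 of 9 male pairs (-1.70 to 0.44, median -0.40). Most slides gave both a control and a BC pair, so that the pairs were not independent of each other. Per2 was lower in 6 of 8 and 8 of 9 pairs, and Nr1d2 in 6 of 8 and 4 of 9. Arntl was higher in 5 of 8 female and 4 of 9 male pairs. Within slides the directions of Arntl (median -0.02) and Nr1d2 (median 0.10) did not hold in males.

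Cell markers moved along with genotype. Of 8 brown adipocyte markers, 5 were lower in Bcmo1-null females on each diet, where 1.84% of all probes passed on the control diet and 5.5% on the BC diet. Ucp1 was among the 5. The median difference over the list was -1.21 in control-fed and -1.16 in BC-fed mice, beside -0.00726 and -0.00261 over all probes. The median log2 ratio of that list ran from 0.05 to 0.75 in control-fed WT females and from -1.26 to -0.20 in control-fed Bcmo1-null females. Over the 47 mice with group means removed, it also ran with Dbp (r = 0.511, rho = 0.50, permutation p = 0.00095 and 0.001, adjusted p = 0.0105 and 0.011 over 11 relations), with r = 0.398 after slide means were removed and 0.422 without the 2 outermost mice. In males the brown adipocyte markers went the other way, 5 of 8 being higher in control-fed Bcmo1-null mice (median 0.71) and 0 of 8 passing on the BC diet (median 0.55, 3 of 8 at an unadjusted p under 0.05, beside 41.1% of all probes). In the interaction of sex and genotype on the control diet 6 of 8 of them passed (median 1.81), beside 1.45% of all probes. The difference of Dbp was below 0 in both sexes, but in control-fed males it was smaller than its SE. The part of brown adipocyte markers in the differences of Dbp was not tested. Adipocyte markers were lower in Bcmo1-null males (6 of 10 on the control and 3 of 10 on the BC diet) and macrophage markers higher (5 of 8 on each). Of all probes in males, 30.2% passed on the control diet and 29.2% on the BC diet, and 3 of 10 was near that share. The adipocyte markers that passed in females were higher in Bcmo1-null mice. They were 1 of 10 on the control diet (Lpl, 0.89) and 2 of 10 on the BC diet (Lpl, 0.98, and Retn, 0.71). In males, 10 of 10 measured lymphocyte markers were higher in Bcmo1-null mice (median 2.51 and 2.77), on the control and BC diets. Lymphocyte markers ran with Dbp at r = 0.232 (rho = 0.198, adjusted permutation p = 0.290 and 0.523), and the part of these markers in the clock gene differences was not tested. Of the other relations of this kind with Dbp, only the median of the clock outputs passed (r = 0.470, rho = 0.463, adjusted permutation p = 0.0199 and 0.0194), and those of the other regulators (0.0815), the glucocorticoid-responsive genes (0.203) and the adipocyte (0.294), mammary (-0.0874), muscle (-0.0345) and macrophage (-0.326) markers did not. After slide means were removed as well, r was -0.471 for macrophage, 0.400 for muscle and 0.385 for adipocyte markers, and 0.312 for the clock outputs. In that setting, which was given no p, brown adipocyte markers (0.398) did not stand out from those of other cell types.

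Some of the other clock regulators and outputs passed for genotype in males on both diets, as did many of all probes. Of the 9 regulators 4 passed in limma in males on each diet, beside 30.2% of all probes on the control diet and 29.2% on the BC diet, Cry2, a repressor like Cry1 (-0.54 and -0.58), Rora, the activator of the ROR element (-0.32 and -0.31), and the kinase Csnk1e (-0.27 and -0.25) being lower in Bcmo1-null males and Timeless (0.30 and 0.26) higher. Of the 11 outputs 5 passed on each diet, beside the same shares of all probes, and no test set these counts against those shares. Hlf (-0.75 and -0.67), Usp2 (-0.47 and -0.45), Por (-0.40 and -0.60) and Pparg (-0.52 and -0.32) were lower and Pdk4 (0.97 and 1.00) higher. In females, Cdkn1a on the BC diet was the only regulator or output to pass (0.72, adjusted p = 0.0363 in limma). In the interaction of sex and genotype on the control diet, 0 of 9 regulators and 0 of 11 outputs passed in limma, beside 1.45% of all probes. In that fit 2 and 3 of them had an unadjusted p under 0.05, beside 22.3% of all probes. On the BC diet the interaction was not tested. Of the glucocorticoid-responsive genes, only Mt2, a metallothionein, passed in females on the BC diet (-1.26, adjusted p = 0.0433 in limma) and in males on both diets (-0.86 and -0.86).

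The BC diet moved no member past the threshold. In WT females 0 of 7 passed in limma, against 1.11% of probes, and only Clock had an unadjusted p under 0.05 (-0.25, SE 0.097, adjusted p = 0.134), beside 23% of all probes. In Bcmo1-null females, WT males and Bcmo1-null males, 0 of 7 passed, as did 0% of all probes in each, and 0 of 7 had an unadjusted p under 0.05, beside 2.46%, 1.94% and 3.55% of all probes. For Dbp the BC effect was 0.09 (SE 0.49) in WT and 0.45 (SE 0.49) in Bcmo1-null females, and 0.06 (SE 0.56) and -0.29 (SE 0.54) in males. For Arntl it was -0.25 (SE 0.28), -0.10 (SE 0.28), -0.01 (SE 0.33) and 0.12 (SE 0.32), in the same order. A change in Dbp smaller than these SEs was not detectable, and larger ones could also have been missed. In the interactions of genotype and diet 0 of 7 passed in each sex, as did 0% of all probes, with 0 of 7 members at an unadjusted p under 0.05, beside 9.68% of all probes in females and 1.41% in males. That of sex and diet in WT mice called 0 of 7 beside 1.14% of probes, with Clock at an unadjusted p under 0.05 (0.31, SE 0.14, adjusted p = 0.190), as were 23.5% of all probes.

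Between the sexes, 2 of 7 members passed in limma over all 47 mice, where 51.6% of all probes did. Clock was 1.26-fold higher in males (0.33, SE 0.051, adjusted p = 5.54e-07) and Nr1d1 1.47-fold higher (0.56, SE 0.14, adjusted p = 0.00124). Only 4 of 12 slides held both sexes, and they gave 4 pairs of the same genotype and diet. A control and a BC pair of Bcmo1-null mice came from the same slide, the fifth, and the second slide gave none. Clock was higher in the male in 4 of 4 of these pairs (0.03 to 0.79), but Nr1d1 was lower in the male in 4 of 4 (-1.38 to -0.20). In the same pairs Arntl was higher in 4 of 4 and Nr1d2 lower in 4 of 4, whereas Dbp was lower in 2 of 4 (-3.16 to 0.28, median -0.45). With slide as a fixed term, Nr1d1 turned to -0.39 (SE 0.23, adjusted p = 0.237), and Arntl (0.87, SE 0.25, adjusted p = 0.00949), Dbp (-1.11, SE 0.40, adjusted p = 0.0416) and Nr1d2 (-0.72, SE 0.24, adjusted p = 0.0251) passed beside Clock. With slide as a random block, Nr1d1 kept its direction in limma (0.46, SE 0.16, adjusted p = 0.0154). The separate cDNA probe of Clock was lower in males (-0.16, adjusted p = 0.00803). Mammary epithelial markers were lower in males (10 of 10, median -3.75), muscle markers higher (9 of 10, median 1.88) and adipocyte markers higher (9 of 10, median 0.54), and their part in these differences was not tested. Of the other regulators, Cry2 (0.48) and Rora (0.39) were higher in males and Bhlhe40 (-0.63) lower in the fit without slide. Of 11 outputs, Noct (0.33), Por (0.46) and Cdkn1a (0.45) were higher in males. Of 11 glucocorticoid-responsive genes, Tsc22d3 (0.56), Dusp1 (0.54) and Mt1 (0.20) were higher and Sgk1 (-0.44) and Lcn2 (-1.83) lower.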

How the data were processed

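Total RNA of iWAT was hybridised on 2-colour Agilent 4x44K mouse arrays. The authors deposited the scanner's intensity values per spot (per the file headers from Feature Extraction 9.5.3.1), and a table whose values equal the scanner's log10 ratio of Cy5 to Cy3 in 100% of spots. The deposited log10 ratios were used only as an alternative.

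Here, median signals were corrected with normexp (offset 50) and normalized by loess within each array in limma 3.58.1 (R 4.3.3), fitted without control spots. Then 10902 spot readings flagged as outliers, counted over all 47 arrays, were left out. Spots of a probe were averaged, and probes were kept where the mean signal was at least 2 times background in both dyes (20811 of 41174 probes in females, 20437 in males, 20718 in all mice). The brightest kept probe stood for a gene. No dyes were swapped, so a dye effect stays in every ratio to the pool, though not in differences between groups. Groups came from the sample labels, and mice were taken as separate samples. The fits used the 24 females, the 23 males or all 47 mice, with Benjamini-Hochberg adjustment over all kept probes and a threshold of 0.05. An unadjusted threshold of 0.01 stands beside it. The study used 0.01 for its counts of regulated genes and 0.05 for other array results. The number of arrays limits the precision. Relations between genes used 100000 permutations within groups. Promoters were those of RefSeq (GRCm38.p6), while probe positions are in mm8. All clock genes were named whatever their values, list genes where they passed, and the 12 genes most and least like Arntl or Dbp. The genes, lists and tests were chosen with earlier results of these data known, and 25 alternatives were planned. Scripts were tested on simulated data. Replicate numbers did not pair the mice. Some genes of the regulator list are not reported here by name.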

Additional observations from a re-analysis of the deposited data

Results flagged for a closer look

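In 2 of 88 sets of values tested, where chance sets apart about 1 in 20, a single mouse lay far from the other 5 of its group. A set was 1 gene, or Arntl less Dbp, in 1 group, so that the sets were not independent of each other. Clock had a log2 ratio of 0.41 in Bcmo1-null male control mouse 5, the next highest being 0.04. Cry1, which was below the signal filter, had 0.47 in Bcmo1-null male control mouse 1, the next highest being 0.07.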

How the results depend on the processing

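Of the values recomputed under alternatives other than leaving out a mouse, 90 of 92 correlations, 201 of 210 counts, 48 of 48 group means of Arntl less Dbp, 38 of 42 spreads and 162 of 174 single differences kept their direction and side of the threshold or moved little. These correlations were those with Arntl over mice and those of Arntl and Dbp between the mice of slide pairs. A group mean counted as kept if it moved by less than the SD of its group. These SDs ran from 0.55 to 2.28, a wide limit, so that 48 of 48 says little. The cause of the other changes was not tested. With each array centred on its median, the averaged genotype difference called 2 members (Arntl and Nr1d2 not among them, adjusted p = 0.0680 and 0.0686 in limma; without normalization Arntl had 0.125), the control-diet difference of females called 1 (Per2), r of Npas2 with Arntl was 0.17 and the spread of Clock was 0.342, which was 0.267 without normalization. The spread of Per2 was 0.747 with Agilent's processed signals and 0.747 with the deposited ratio. With all 47 arrays in 1 fit, females called 1 member on the control diet and 1 on the BC diet. With slide as a random block, the BC-diet genotype difference called 2 members in females and 1 in males, and with slide as a fixed term 0 in females and 2 in males. Slide as a fixed term raised the count for sex to 4 and turned Nr1d1 to -0.39. With replicate number as a block (no pairing was found: 1 of 12 pairs of groups had all correlations over 0.1), the BC-diet difference of females called 2 members, Arntl (0.87, adjusted p = 0.0326 in limma) and Clock (0.30, adjusted p = 0.0390). Leaving out 1 mouse at a time gave 0 to 2 calls on the BC diet in females, 0 to 1 in males, 0 to 1 on the control diet in females, 3 to 5 for the average and 2 to 2 for sex. On the BC diet, Arntl passed in females without WT control mouse 2 (adjusted p = 0.0440 in limma) or WT BC mouse 1 (0.0450), both Arntl and Clock without WT BC mouse 5, and Clock without Bcmo1-null BC mouse 3 (0.0386). In males, 1 member passed without WT control mouse 6, WT BC mouse 2 or 5, Bcmo1-null control mouse 5 or Bcmo1-null BC mouse 1. The methods' t-test gave no value for interactions and averages. Aquantile scaling leaves log ratios as they are, so that its values were unchanged by construction. Agilent's processed signals and the deposited ratio gave nearly the same values and are not separate checks. Alternatives with slide pairs, averages and sex within slides were chosen after seeing the data.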

Other observations

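Trim12, a gene on the same chromosome as Arntl and Dbp whose level varied among the 24 Bcmo1-null mice, was set beside both genes as 2 of the 11 relations with list levels. Its r was -0.152 with Arntl (rho = -0.0687, permutation p = 0.467 and 0.753, adjusted p = 0.632 and 0.753) and 0.220 with Dbp (rho = 0.0861, permutation p = 0.275 and 0.673, adjusted p = 0.432 and 0.740), and neither passed.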
